A study of Homo sapiens with 15 samples.

Results

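MME, BASP1, ANO2, IGFN1, KISS1, VSTM1 and TNNT2 are 7 genes at or near the bottom of the expression range in A375 cells that stood among the highest differences when VAV1 was overexpressed. They were chosen by symbol, 7 of 17360 symbols in the series, for that VAV1 difference, so their difference between VAV1 and empty vector is a description and carries no test. The same genes with RAC1 P29S, in separate libraries, are open to a test. With saracatinib, an inhibitor of SRC family kinases, the comparisons share libraries with that choice, and their p-values are read with that limit. A375 is an established human melanoma line with mutant BRAF. In 1 experiment, 9 libraries came from VAV1-overexpressing cells given saracatinib, VAV1-overexpressing cells given vehicle and empty vector cells given vehicle. In the other, 6 libraries came from untreated cells overexpressing RAC1 P29S and untreated empty vector cells. Each of the 5 groups has 3 libraries, called biological triplicates in the design text, and no label tells whether they came from separate transductions, so a p-value here speaks only of the spread among those 3 cultures. The labels give no dose, no time and no clone, and no empty vector cells received saracatinib. Samples titled RAC1 P29S carry a genotype label that names the empty vector, and the titles were followed here.

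VAV1 is a guanine nucleotide exchange factor: it loads small GTPases such as RAC1 with GTP, and it is normally made in blood cells, where SRC family and related kinases switch it on by tyrosine phosphorylation. RAC1 relays signals to the actin cytoskeleton, to kinase cascades and to transcription factors. RAC1 P29S is a recurrent melanoma mutant that exchanges its nucleotide quickly and therefore stays active without such a factor.

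The deposited values are log2 of a normalized count plus 1, and levels are given below as normalized counts. They are not divided by transcript length, so levels are compared between groups and not between genes, and the 2 experiments were normalized separately. Libraries summed to 14443918 to 16262759 normalized counts. VAV1 was at 17595 to 18348 normalized counts in VAV1 cells with saracatinib and 14839 to 15690 in VAV1 cells with vehicle, against 2.74 to 4.62 in empty vector cells. RAC1 was at 30381 to 31705 in the libraries labelled RAC1 P29S, against 3747 to 3821 in untreated empty vector cells, which goes with the titles. The 11 melanocyte lineage markers summed to 3789 to 3893 normalized counts with VAV1 and saracatinib, 3180 to 3325 with VAV1 and vehicle and 9220 to 9722 with the empty vector and vehicle, and to 5627 to 6037 with RAC1 P29S against 11462 to 12493 in its control. Of 6 tested, 1 was higher and 3 lower with VAV1, beside 23.6% and 20.1% of all tested genes (limma). The same numbers of these markers were called with RAC1 P29S, beside 15.6% and 15.5% of all tested genes. The lineage transcription factor SOX10, the most abundant of the markers in every group, was lower with VAV1 by -2.07 ± 0.04 (limma, adjusted p = 4.73e-13) and with RAC1 P29S by -1.10 ± 0.05 (adjusted p = 1.42e-07). MITF, the lineage's master regulator, was the one that rose, by 1.57 ± 0.11 on the log2 scale with VAV1 (limma, adjusted p = 1.11e-07) and by 1.23 ± 0.11 with RAC1 P29S (adjusted p = 1.86e-05). With saracatinib, 1 of the 6 was lower, beside 19.1% of all tested genes, MITF by -1.09 ± 0.11 (limma, adjusted p = 5.88e-06). Another 3 were higher, beside 18.3% of all tested genes. Those 3 were SOX10 by 0.63 ± 0.04 (adjusted p = 1.07e-07), S100A1 by 1.49 ± 0.10 (adjusted p = 9.26e-08) and S100B by 0.90 ± 0.14 (adjusted p = 0.000236). MITF was at 456 to 568 normalized counts with VAV1 and saracatinib and 1065 to 1110 with VAV1 and vehicle, against 314 to 434 with the empty vector. TYR and DCT, 2 pigment enzymes, were not listed in the 9-library experiment. Summed levels in bulk RNA cannot tell fewer cells of a kind from less RNA per cell.

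RefSeq promoter windows on GRCh38.p14 were at hand for 6 of the 7 genes. They run from 250 bases before to 50 bases after an annotated start. The TEAD motif GGAATG, searched on both strands, occurred in the windows of MME and TNNT2, 2 of 6 genes, beside 16.73% of 27305 genes with a window. Counted from the annotated start, the match began at base -219 in MME and at base -81 in TNNT2. The AP-1 motif TGANTCA, found in 9.368% of genes, and the SRF CArG box, found in 1.604%, were in none of the 6 genes' windows. These are matches of letters, not bound sites. MME and TNNT2 are shown for the match, in capitals, and stretches that GENCODE release 29 counts as exons are left out, apart from the 26 bases around the TNNT2 match. IGFN1, KISS1 and BASP1 are shown as windows with few and with many CpG dinucleotides, 5, 9 and 27 in 300 bases, against a median of 14 over all windows. They do not span the members' range, which was 1 to 43, with both ends in windows of ANO2.
MME, chr3:155079422-155079646, plus strand, 225 bases: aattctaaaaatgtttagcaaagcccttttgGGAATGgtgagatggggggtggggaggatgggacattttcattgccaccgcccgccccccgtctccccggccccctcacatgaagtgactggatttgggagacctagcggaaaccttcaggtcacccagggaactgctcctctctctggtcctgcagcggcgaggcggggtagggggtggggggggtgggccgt
TNNT2, chr1:201377746-201377771, minus strand, 26 bases: ccctgtcgcaCATTCCtccctccgca
IGFN1, chr1:201190574-201190823, plus strand, 250 bases: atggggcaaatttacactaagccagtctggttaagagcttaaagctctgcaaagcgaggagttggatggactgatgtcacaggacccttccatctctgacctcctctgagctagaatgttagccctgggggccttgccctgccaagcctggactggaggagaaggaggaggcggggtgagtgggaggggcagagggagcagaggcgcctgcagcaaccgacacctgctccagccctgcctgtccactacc
KISS1, chr1:204196492-204196741, minus strand, 250 bases: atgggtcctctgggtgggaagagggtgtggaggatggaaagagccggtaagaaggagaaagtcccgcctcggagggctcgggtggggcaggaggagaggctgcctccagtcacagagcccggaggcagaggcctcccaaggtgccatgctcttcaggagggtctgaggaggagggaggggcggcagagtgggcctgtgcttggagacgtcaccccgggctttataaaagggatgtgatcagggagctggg
BASP1, chr5:17216573-17216822, plus strand, 250 bases: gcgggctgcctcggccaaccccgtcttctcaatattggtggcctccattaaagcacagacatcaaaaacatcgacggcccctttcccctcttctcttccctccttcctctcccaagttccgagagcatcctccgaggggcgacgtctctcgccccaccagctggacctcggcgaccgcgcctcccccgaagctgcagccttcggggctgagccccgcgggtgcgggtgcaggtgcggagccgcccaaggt

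With RAC1 P29S, 6 of 6 listed genes were higher than in the control, where 15.6% of tested genes were, and TNNT2, cardiac troponin T, was not listed. All but MME of the 6 passed the filter through the RAC1 P29S libraries alone, so the count lends no support by itself. With saracatinib, 7 of 7 genes were still above empty vector cells, where 22.4% of tested genes were. All but MME and IGFN1 of the 7 passed that filter through VAV1 libraries alone, so this count lends no support by itself either. Set against vehicle in VAV1 cells, every saracatinib library had more MME, a peptidase, and more ANO2, a chloride channel, and less of the other 5. Of these differences only the fall of KISS1, which encodes the kisspeptin precursor, passed the test in the 9-library fit, 1 of 7 genes beside 37.3% of tested genes, while all 7 passed in a fit of the 6 VAV1 libraries alone. Tests were two-sided limma fits over all genes with at least 10 normalized counts in at least 3 libraries, called at a Benjamini-Hochberg adjusted p under 0.05, and errors after ± are SE for differences and SD for levels. The saracatinib comparison shares the VAV1 vehicle libraries, and the comparison of VAV1 with saracatinib against empty vector shares the empty vector libraries, with the contrast that chose the genes. A lean of the 7 to lower with saracatinib and to higher than empty vector was thus partly built in.

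**Figure D1:**
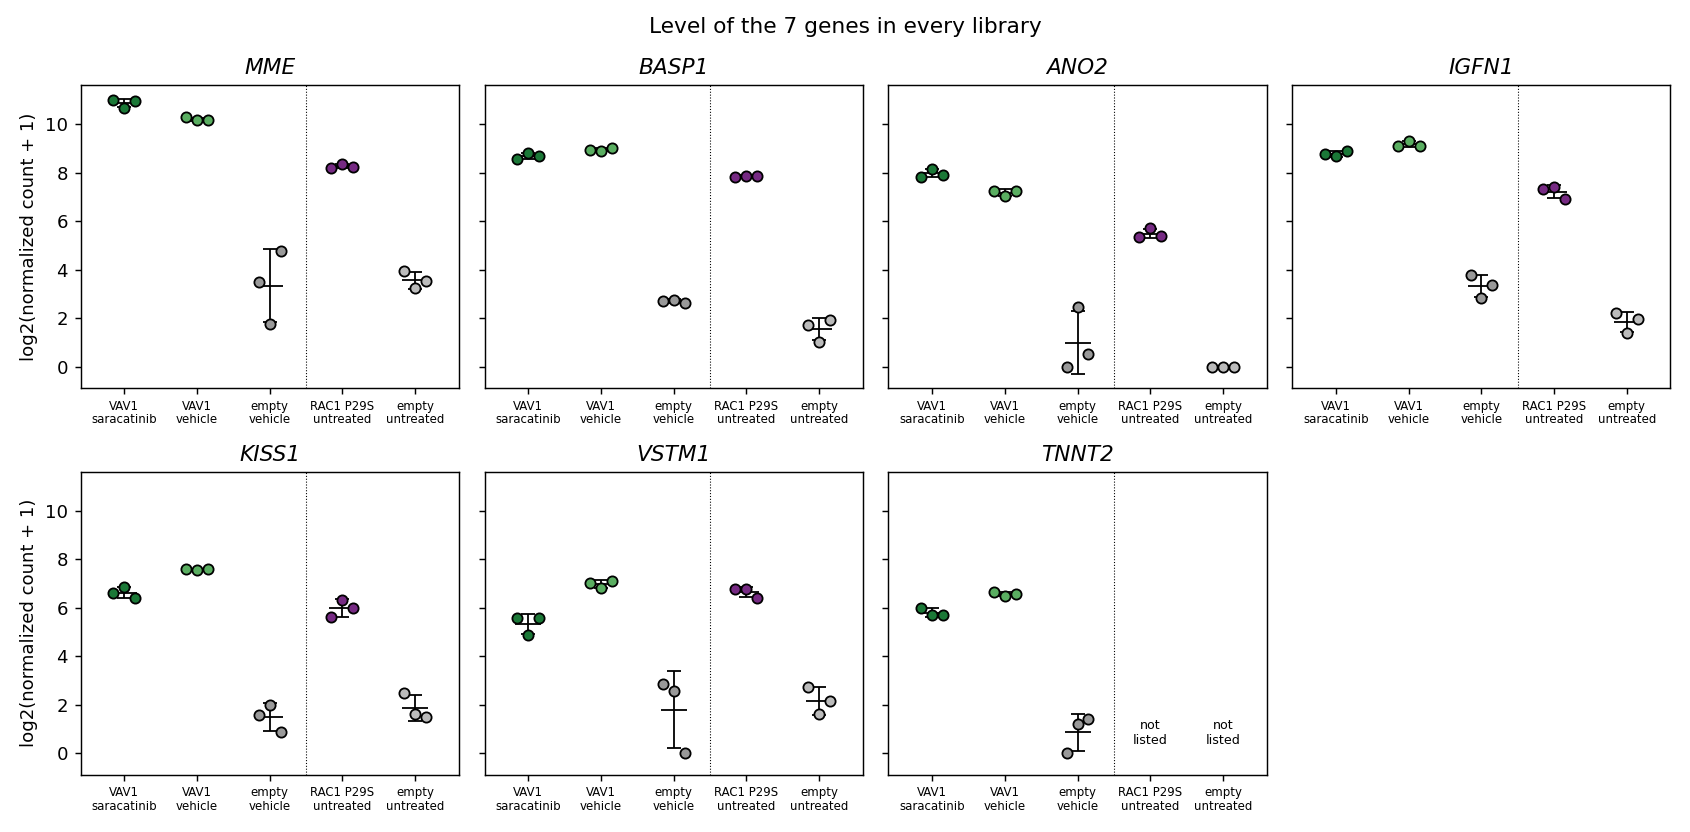
Level of each gene in all libraries that list it, as log2(normalized count + 1), by group; points are libraries and bars the mean ± SD of 3, and the dotted line separates the 2 experiments, which were normalized separately. Every VAV1 and RAC1 P29S library lies above every empty vector library of its experiment for each listed gene, and TNNT2 has no values in the untreated experiment.

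MME encodes neprilysin, a zinc peptidase of the cell surface that cleaves small signalling peptides. Its level was 2052, 1635 and 1957 normalized counts in VAV1 cells with saracatinib and 1230, 1147 and 1139 in VAV1 cells with vehicle, against 10.05, 2.42 and 26.6 in empty vector cells with vehicle. The lowest saracatinib library lay above the highest vehicle library, and the empty vector libraries, 2 of which reached 10 normalized counts, were widely spread, so that MME was not silent in all of them. In untreated cells MME was at 293, 328.5 and 300.1 normalized counts with RAC1 P29S, against 14.3, 8.38 and 10.6 with the empty vector. The RAC1 P29S libraries lay within a narrow band well above the control. The log2 difference was 6.85 ± 0.68 for VAV1 against empty vector, 7.53 ± 0.68 for VAV1 with saracatinib against empty vector (limma, adjusted p = 0.00013) and 4.70 ± 0.21 for RAC1 P29S (limma, adjusted p = 1.08e-07). Saracatinib against vehicle gave 0.68 ± 0.68 (limma, adjusted p = 0.485), a mean of 160.5% of the vehicle mean.

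KISS1 encodes the precursor of the kisspeptins, secreted peptides that act on the receptor KISS1R and are known for suppressing melanoma metastasis. It was at 96.3, 115 and 82.9 normalized counts in VAV1 cells with saracatinib and at 191, 186 and 192 in VAV1 cells with vehicle, against 1.985, 3.02 and 0.8375 in empty vector cells. The 3 vehicle libraries were almost level, and all 3 saracatinib libraries were lower. RAC1 P29S cells had 47.7, 80.1 and 62.3 normalized counts, against 4.55, 2.08 and 1.83 in their control, again without overlap. KISS1 fell with saracatinib by 0.96 ± 0.28 on the log2 scale (limma, adjusted p = 0.0154), to 51.57% of the vehicle mean. That call was lost without replicate 3 of the VAV1 vehicle group (adjusted p = 0.0506) or without replicate 3 of the saracatinib group (adjusted p = 0.0634). What was left stood 5.13 ± 0.28 above empty vector on the log2 scale (limma, adjusted p = 1e-08), next to 6.09 ± 0.28 with vehicle. For RAC1 P29S the log2 difference was 4.11 ± 0.38 (limma, adjusted p = 2.17e-05).

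VSTM1 encodes an inhibitory immunoglobulin-family receptor known from myeloid white blood cells. Normalized counts were 47.2, 28.3 and 46.8 in VAV1 cells with saracatinib and 129, 112 and 137 in VAV1 cells with vehicle, against 6.23, 4.885 and 0 in empty vector cells. Saracatinib and vehicle libraries were far apart, and VSTM1 was listed at 0 in 1 empty vector library. With RAC1 P29S the level was 107.5, 107 and 84.1 normalized counts, against 5.59, 2.04 and 3.41 in untreated empty vector cells. VSTM1 kept the smallest part of its VAV1 level of the 7 genes under saracatinib, 32.39% of the vehicle mean, a log2 difference of -1.63 ± 0.60 that narrowly missed the threshold (limma, adjusted p = 0.0508). It remained 3.54 ± 0.60 above empty vector cells with saracatinib (limma, adjusted p = 0.000565), against 5.18 ± 0.60 with vehicle. The RAC1 P29S difference was 4.49 ± 0.34 on the log2 scale (limma, adjusted p = 4.63e-06).

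ANO2 encodes a calcium-activated chloride channel best known from olfactory neurons. VAV1 cells had 227, 283 and 239 normalized counts with saracatinib and 150.2, 128 and 151 with vehicle, and empty vector cells had 0, 4.50 and 0.418. As for MME, every saracatinib library exceeded every vehicle library. RAC1 P29S cells had 40.15, 51.35 and 40.6 normalized counts, and ANO2 was listed at 0 in all 3 untreated empty vector libraries, so no fold is given there (limma on the log2 values, adjusted p = 7.71e-06). The saracatinib mean was 174.2% of the vehicle mean, a log2 difference of 0.79 ± 0.48 (limma, adjusted p = 0.226). Against empty vector the log2 difference was 6.98 ± 0.48 with saracatinib (limma, adjusted p = 4.05e-07) and 6.18 ± 0.48 with vehicle.

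BASP1 encodes an acidic protein anchored in the inner face of the plasma membrane, abundant in nerve growth cones. It was at 379, 441 and 415 normalized counts with VAV1 and saracatinib and 485, 478 and 512 with VAV1 and vehicle, against 5.57, 5.74 and 5.16 with the empty vector. The saracatinib libraries lay a little below the vehicle libraries without touching them. In the untreated experiment BASP1 was at 223, 232 and 232 normalized counts with RAC1 P29S, against 2.26, 1.04 and 2.72 with the empty vector, and had the highest log2 difference of all 14036 genes tested, 6.30 ± 0.29 (limma, adjusted p = 1.26e-07). VAV1 against empty vector gave 6.25 ± 0.13. Saracatinib left 83.67% of the vehicle mean, a log2 difference of -0.26 ± 0.13 (limma, adjusted p = 0.150), and a difference from empty vector of 5.99 ± 0.13 (limma, adjusted p = 2.85e-12).

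IGFN1 and TNNT2 are muscle genes, and IGFN1 lies 130.1 kb from TNNT2 on chromosome 1. IGFN1 encodes an immunoglobulin-domain and fibronectin-domain protein of skeletal muscle, and its level was 429.6, 405 and 472 normalized counts with VAV1 and saracatinib and 541, 632 and 553 with VAV1 and vehicle, against 12.6, 6.09 and 9.28 with the empty vector. With RAC1 P29S it was 157, 169.8 and 119 normalized counts, against 3.57, 1.64 and 2.86 in the control. IGFN1 was thus well separated from its control in both experiments, with a log2 difference of 5.85 ± 0.20 for VAV1 and 5.36 ± 0.31 for RAC1 P29S (limma, adjusted p = 6.25e-07). Under saracatinib 75.76% of the vehicle mean was found, a log2 difference of -0.40 ± 0.20 (limma, adjusted p = 0.132), and IGFN1 stayed 5.45 ± 0.20 above empty vector (limma, adjusted p = 1.79e-10). TNNT2 encodes cardiac troponin T, the part of the thin filament that binds tropomyosin. It was at 63.4, 50.6 and 51.2 normalized counts with VAV1 and saracatinib and 99.65, 88.8 and 93.2 with VAV1 and vehicle, against 0, 1.32 and 1.63 with the empty vector. The 3 groups did not overlap. Saracatinib gave 58.67% of the vehicle mean, a log2 difference of -0.76 ± 0.36 (limma, adjusted p = 0.111), and TNNT2 stood 4.93 ± 0.36 above empty vector with saracatinib (limma, adjusted p = 1.71e-07) and 5.70 ± 0.36 with vehicle. TNNT2 and the epithelial anchoring protein gene LAD1 overlap on the same strand. LAD1 moved the other way with VAV1, by -0.85 ± 0.17 (limma, adjusted p = 0.00131). With saracatinib it had the same direction as TNNT2, at -0.50 ± 0.17 (limma, adjusted p = 0.0346). LAD1 was lower with RAC1 P29S by -1.99 ± 0.20 (limma, adjusted p = 3.61e-05), where TNNT2 was not listed.

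Set against all tested genes, the VAV1 differences of the 7 genes ranked from 2nd to 14th of 14410, after VAV1 itself, and their libraries did not overlap between VAV1 and empty vector, as for 52.7% of genes tested. This contrast chose them, so nothing is read from either figure. The choice had no stated limit: VSTM1 at rank 14 was the lowest member, and RGS4, C9orf84 and SH3GL2, at log2 differences of 6.10, 5.74 and 5.50, stood among the members without being chosen. In the RAC1 P29S comparison 6 of 7 genes were called higher, where 15.6% of tested genes were, with libraries apart from the control's for each, as for 45.0% of tested genes, and the seventh, TNNT2, was not listed. BASP1, ANO2, IGFN1, KISS1 and VSTM1 had no control library at 10 normalized counts and passed the filter through the RAC1 P29S libraries alone, so they had to differ, and the count lends no support by itself. Without the filter these 5 had adjusted p of 1.53e-07 to 2.22e-05 (limma), and 237 of the 2388 genes with a control mean under 10 normalized counts, 9.92%, were called higher. A log2 difference of at least 4 was found in 26 of those genes, 1.09%.

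**Figure D2:**
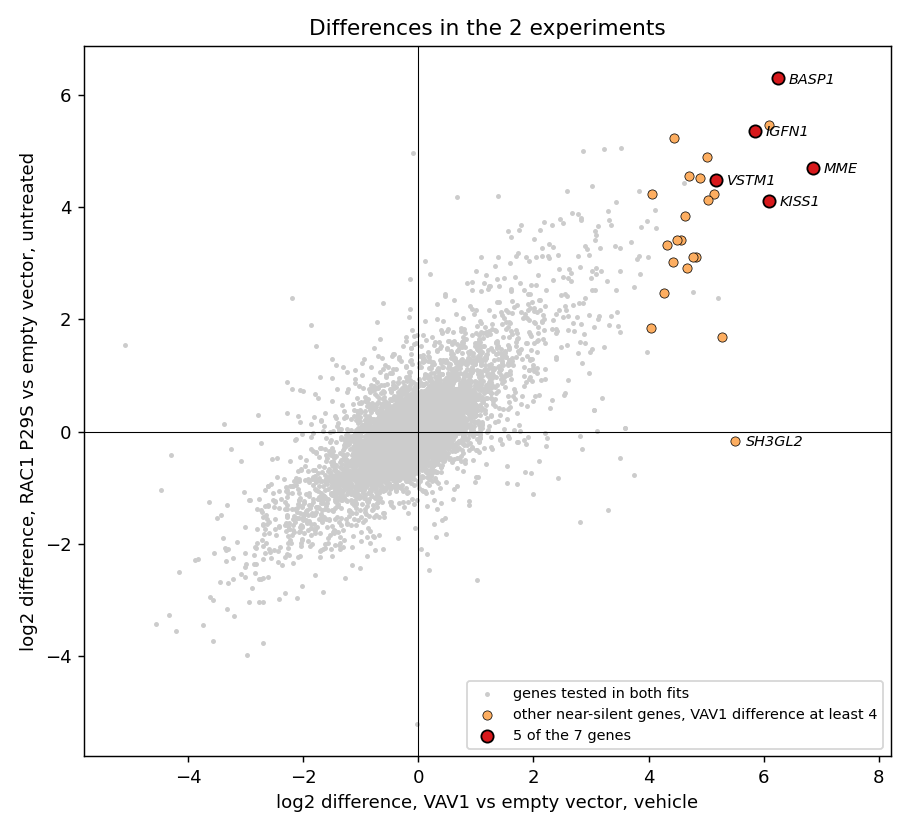
Log2 difference of VAV1 against empty vector with vehicle (horizontal) and of RAC1 P29S against untreated empty vector (vertical), 1 point per gene tested in both fits and not at 0 in all 3 libraries of a control, with 5 of the 7 genes in red and other near-silent genes with a VAV1 difference of at least 4 in orange. The 5 red genes lie between 4.11 and 6.30 on the vertical axis, ANO2 is left out because its control is listed at 0, and SH3GL2 lies at -0.17.

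With saracatinib, 1 of 7 genes was called, KISS1, where 37.3% of tested genes were called, 18.3% higher and 19.1% lower. The VAV1 vehicle libraries also chose the genes, so a lean to lower was partly built in. For none of the 7 genes did a saracatinib library reach into the range of the vehicle libraries, which also held for 49.4% of tested genes. The 9-library fit uses 1 spread per gene over all 3 groups, including empty vector libraries near 0, where the log2 SD of MME was 1.51, against 0.17 with saracatinib and 0.06 with vehicle in VAV1 cells. A limma fit of the 6 VAV1 libraries alone called all 7, MME (adjusted p = 6.65e-05) and ANO2 (adjusted p = 0.000543) higher and BASP1 (0.0346), IGFN1 (0.00526), KISS1 (0.000341), VSTM1 (0.000139) and TNNT2 (0.00474) lower by adjusted p, beside 38.8% of 14034 genes. The sizes of the differences are the same in both fits, and the SE of MME was 0.0812 in the fit of 6. The part of the VAV1 rise over empty vector that was present with saracatinib, from group means, was 30.34% for VSTM1, 51.07% for KISS1, 58.23% for TNNT2, 75.37% for IGFN1, 83.48% for BASP1, 161.2% for MME and 175.1% for ANO2. VAV1 itself had a log2 difference of 0.22 between saracatinib and vehicle in the 9-library fit (limma, adjusted p = 0.152). Its log2 SD was 0.30 with the empty vector, against 0.03 with saracatinib and 0.04 with vehicle in VAV1 cells. All VAV1 levels with saracatinib, 17595 to 18348 normalized counts, lay above those with vehicle, 14839 to 15690. For VAV1 with saracatinib against empty vector 7 of 7 genes were called higher, against 22.4% of tested genes, and their libraries were apart from the empty vector libraries, as for 52.8% of tested genes. Here BASP1, ANO2, KISS1, VSTM1 and TNNT2 had no empty vector library at 10 normalized counts, so that they too passed the filter through VAV1 libraries alone. Without the filter, 410 of the 2847 genes with an empty vector mean under 10 normalized counts, 14.4%, were called higher in this comparison, VAV1 itself among them (limma). Over 19 alternative settings of the saracatinib comparison KISS1 was called in 17 (adjusted p 0.000341 to 0.0634), VSTM1 in 7 (7.32e-05 to 0.151), ANO2 in 4 (0.000543 to 0.382), TNNT2 in 4 (0.00335 to 0.230), IGFN1 in 3 (0.00526 to 0.310), BASP1 in 2 (0.0281 to 0.378) and MME in 1 (6.65e-05 to 0.621), by limma and without a change of direction.

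**Figure D3:**
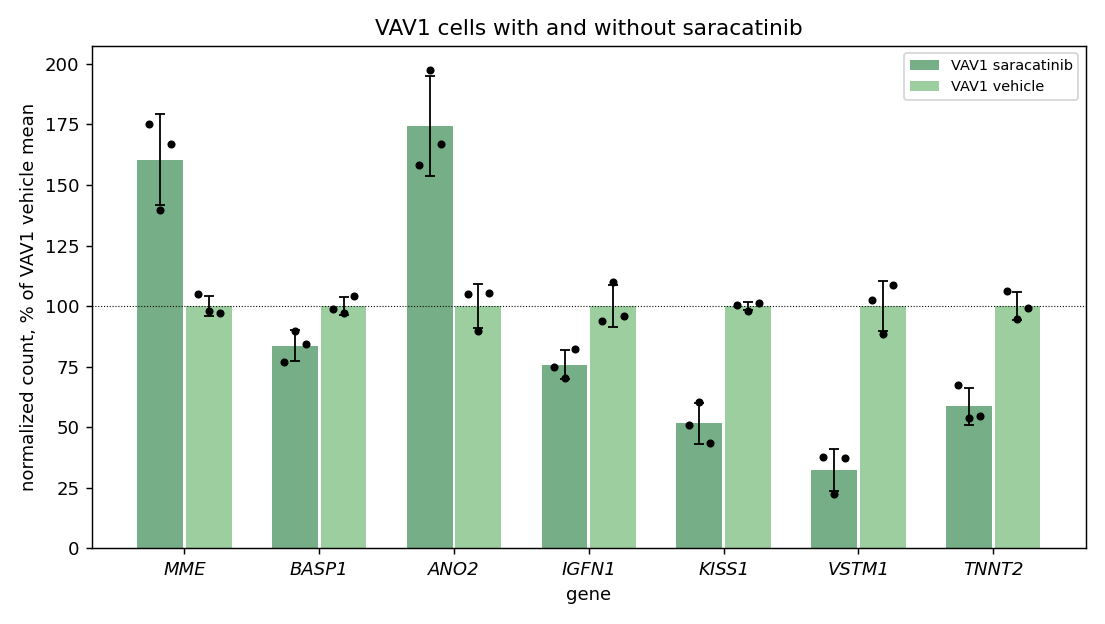
Normalized count of each gene in VAV1 cells with saracatinib (dark, left) and vehicle (light, right), as percent of the vehicle mean; bars are means of 3 libraries, points the libraries and error bars SD. MME and ANO2 lie above 100% with saracatinib, at 160.5% and 174.2%, and the other 5 below, down to 32.39% for VSTM1.

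**Figure D4:**
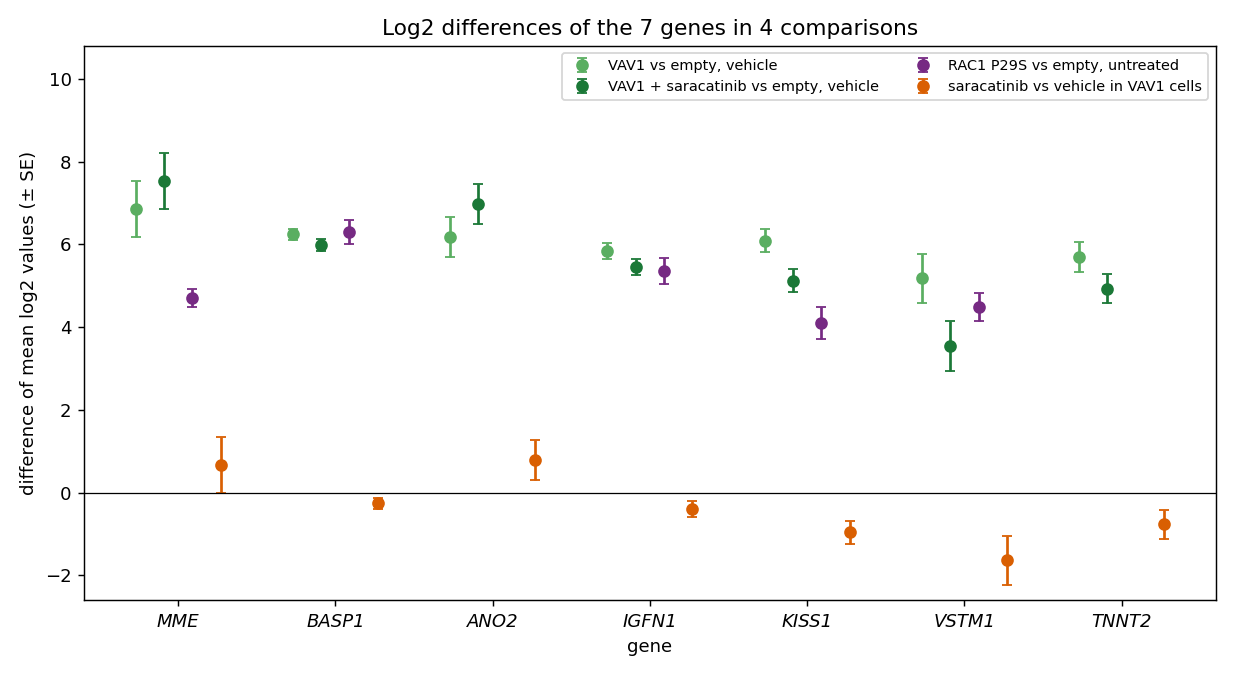
Log2 difference ± SE of each gene in the 4 comparisons, from limma; the VAV1 against empty vector points describe the contrast that chose the genes. The 2 VAV1 comparisons share the empty vector libraries, ANO2 has no RAC1 P29S point because its control is listed at 0, and TNNT2 has none because it is not listed there.

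A wider set was drawn to see whether the 7 differ from genes like them: all genes with a mean under 10 normalized counts in empty vector cells with vehicle and a VAV1 log2 difference of at least 4. It held 42 of 2847 genes under that mean, 1.48%, with 6 of the 7 (MME was above the limit), the overexpressed VAV1 itself and 35 others, and the counts below leave VAV1 out. Without the filter, 9.92% of genes with a mean under 10 normalized counts in the untreated control were called higher with RAC1 P29S (limma). Of the 29 others listed in that experiment, 25 were called higher in the same fit. SH3GL2, an endophilin of synaptic vesicle recycling, was not one of them, at a log2 difference of -0.17 (limma, adjusted p = 0.674), while the G protein regulator RGS4 had 5.47 (adjusted p = 1.92e-08) and the receptor kinase ROS1 had 4.90 (adjusted p = 8.9e-05). Of 34 others tested for saracatinib, 12 were called lower and 1 higher, beside 19.1% and 18.3% of all tested genes. RELN, which encodes the matrix protein reelin, had a saracatinib difference of -2.57 (adjusted p = 0.000687), GDF6, a BMP family ligand, had -1.71 (adjusted p = 0.00316), SBSN had -0.96 (adjusted p = 0.0221), and the cation channel gene TRPC4 had 0.28 (adjusted p = 0.469), all by limma. Among the others 32 were called higher than empty vector with saracatinib, beside 22.4% of all tested genes. The set was chosen for high VAV1 vehicle and low empty vector values, and each comparison with saracatinib shares libraries with that choice. A lean to lower with saracatinib and to higher than empty vector was thus built in, and nothing is read from it. The counts of the wider set stand beside 6 of 6 listed members called higher with RAC1 P29S and 1 of 7 called with saracatinib, with no test between the sets.

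The genes most like each member were those with the highest Pearson correlation of values less the mean of the empty vector libraries of the same experiment, over the 15 libraries, or 9 for TNNT2. Libraries share their group in this measure, so it mostly orders genes by their group means and is a description. The saracatinib and vehicle libraries are part of it. A lean to the member's direction with saracatinib was thus built in, and nothing is read from the saracatinib differences given here. Pairs of the 6 genes listed in both experiments correlated at 0.835 (MME and VSTM1) to 0.994 (BASP1 and IGFN1), and TNNT2 with the others at 0.887 to 0.984. MME was most like CITED2 (0.985), VGLL2 (0.983) and CCBE1 (0.982), and CITED2, a transcriptional coregulator, was also higher with saracatinib, by 0.51 on the log2 scale (limma, adjusted p = 0.000167). BASP1 was most like CCL3 (0.995), GDF15 (0.992) and DKK1 (0.991), and IGFN1 like DKK1 (0.991), CCL3 (0.990) and SLC35F3 (0.989). ANO2 was followed by TRPC4 (0.991), RGS4 (0.987) and FAS (0.982), and KISS1 by ACO1 (0.992), HBEGF (0.984) and DKK1 (0.982). HBEGF, an EGF family ligand, fell with saracatinib like KISS1, by 0.90 on the log2 scale (limma, adjusted p = 2.84e-05). VSTM1 was nearest to ARHGAP29 (0.964), PCLO (0.964) and PRKCE (0.963), each lower with saracatinib, of which PCLO had -1.24 (limma, adjusted p = 2.63e-05). TNNT2 was nearest to TPTEP1 (0.995), CDA (0.994) and GALNT1 (0.994).

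Relatives and partners of the 7 genes were counted against the share of all tested genes called, 23.6% higher and 20.1% lower with VAV1, and 15.6% higher and 15.5% lower with RAC1 P29S. Of the 9 other anoctamins, 8 were tested with VAV1 and 3 were called, each of them lower (limma), the chloride channel ANO1 among them at -1.32 ± 0.21 (adjusted p = 0.000323). ANO8 and ANO4 went lower with VAV1, by -1.18 ± 0.12 and -2.81 ± 0.29, and higher with saracatinib, by 0.92 ± 0.12 (adjusted p = 3.99e-05) and 2.52 ± 0.29 (adjusted p = 1.81e-05). Among the growth-cone relatives of BASP1, MARCKSL1 fell by 1.27 ± 0.05 on the log2 scale with VAV1 (limma, adjusted p = 6.67e-10), MARCKS rose by 0.35 ± 0.08 (adjusted p = 0.00293) and GAP43 had 0.26 ± 0.31 (adjusted p = 0.528). For MME, 4 of 11 tested peptidases were higher with VAV1 and 1 lower, and ANPEP, another surface peptidase, was the most abundant of them and rose by 0.49 ± 0.05 (limma, adjusted p = 3.82e-06). With RAC1 P29S, 2 of 8 peptidases were higher, ANPEP by 0.58 ± 0.06 (limma, adjusted p = 2.98e-05). KISS1R, the kisspeptin receptor, was not listed in either experiment. Of 4 tested genes of kisspeptin and related peptide signalling, 1 was called with VAV1, the receptor gene QRFPR, lower at -0.69 ± 0.15 (limma, adjusted p = 0.00185). Among 15 tested metastasis suppressors, 5 were higher and 2 lower with VAV1, and 5 higher and 3 lower with RAC1 P29S (limma). Those higher with VAV1 included DLC1, a GTPase-activating protein, by 1.51 ± 0.07 (limma, adjusted p = 1.55e-09). ARHGDIB, a GDP dissociation inhibitor of small GTPases, was also higher, by 2.22 ± 0.15 (adjusted p = 4.35e-08). CADM1 was among the 2 lower, at -1.36 ± 0.09 (adjusted p = 8.13e-08).

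Among relatives of TNNT2 and IGFN1, 6 of 14 tested sarcomere genes were higher and 1 lower with VAV1, and 8 of 12 were called with RAC1 P29S, each of them higher (limma). PALLD, TPM1 and MYL9, of the 4 with the smallest adjusted p, are widely made outside muscle. The largest difference of the list was in TTN, at 4.96 ± 0.66 with RAC1 P29S (limma, adjusted p = 0.0002595). With VAV1, TTN had -0.09 ± 0.83 (limma, adjusted p = 0.939). PALLD, an actin cross-linker, rose by 1.84 ± 0.11 with VAV1 and by 1.14 ± 0.14 with RAC1 P29S, and the tropomyosin TPM1 by 0.72 ± 0.06 and 1.05 ± 0.05. MYPN, the muscle relative of PALLD, rose by 1.23 ± 0.21 with VAV1 and by 2.59 ± 0.22 with RAC1 P29S, and the myosin light chain MYL9 had -0.27 ± 0.13 with VAV1 (adjusted p = 0.110) and rose by 1.53 ± 0.16 with RAC1 P29S (adjusted p = 6.02e-05). With saracatinib, 1 of 14 was higher and 4 lower, TPM1 by -0.94 ± 0.06 (limma, adjusted p = 3.48e-08). Of 16 muscle markers, 13 were not listed in either experiment, MYOD1, MYOG, DES, MYH6 and MYH7 among them. The 3 listed (NKX2-5, GATA4 and RYR2) summed to 494.5 to 1487 normalized counts with VAV1 and saracatinib, 561 to 626 with VAV1 and vehicle and 455 to 522 with the empty vector, and to 948 to 1575 with RAC1 P29S against 841 to 1047 in its control. RYR2 alone ranged from 201.6 to 1208 with VAV1 and saracatinib and from 453 to 1097 with RAC1 P29S. With VAV1, 0 of the 3 were called (limma). NKX2-5 was lower with RAC1 P29S by -0.40 ± 0.12 (limma, adjusted p = 0.0288). With saracatinib NKX2-5 was lower by -0.52 ± 0.12 (adjusted p = 0.00455) and GATA4 by -0.44 ± 0.15 (adjusted p = 0.0347). For VSTM1, 2 of 5 tested genes of a list of mostly inhibitory leukocyte receptors were higher and 1 lower with VAV1 and likewise with RAC1 P29S: CD33 by 2.44 ± 0.16 and 2.89 ± 0.20, its neighbour OSCAR by 2.89 ± 0.38 and 2.39 ± 0.51, and SIRPA by -0.86 ± 0.09 and -0.65 ± 0.08. OSCAR passed the filter through VAV1 libraries alone in the first comparison and through RAC1 P29S libraries alone in the second. Of 16 leukocyte markers 11 were listed in the 9-library experiment, without CD3E, CD3D, MS4A1, SPI1 and TYROBP, and they summed to 284 to 342 normalized counts with VAV1 and saracatinib, 337 to 391.5 with VAV1 and vehicle and 597 to 669 with the empty vector. ITGAM was at 0 in every library with saracatinib and with the empty vector. Of 5 tested leukocyte markers, 2 were called with VAV1, both lower (limma), LYZ, which encodes lysozyme, at -2.11 ± 0.14 (adjusted p = 5.60e-08) and LAPTM5 at -0.73 ± 0.22 (adjusted p = 0.0158), while FCER1G, a signalling chain of Fc receptors, had 0.80 ± 0.35 (adjusted p = 0.0823). With RAC1 P29S, 8 of the 16 were listed and summed to 394 to 511, against 397 to 464 in the control. There FCER1G was higher by 1.76 ± 0.34 (limma, adjusted p = 0.00310), at 19.4 to 24.1 normalized counts against 4.89 to 6.74, and LYZ was lower by -0.89 ± 0.16 (adjusted p = 0.00212). FCER1G passed that filter through the RAC1 P29S libraries alone. Neuron markers, 9 of 14 listed, summed to 5846 to 6313 with VAV1 and saracatinib, 5148 to 5263 with VAV1 and vehicle and 4091 to 4418 with the empty vector, with TUBB3 the most abundant, and to 7001 to 7498 with RAC1 P29S, against 7406 to 8994 in its control. Of 7 tested, 1 was called higher with VAV1, TUBB3 by 0.41 ± 0.05 (limma, adjusted p = 7.87e-06), and 2 lower. These were NEFL by -0.62 ± 0.08 (adjusted p = 4.83e-05) and SNAP25 by -0.75 ± 0.26 (adjusted p = 0.0336). With RAC1 P29S 1 was higher and 2 lower, SNAP25 among them at -2.11 ± 0.29 (adjusted p = 0.000352). With saracatinib 2 were higher, NEFL by 1.51 ± 0.08 (limma, adjusted p = 1.65e-08) and SNAP25 by 1.65 ± 0.26 (adjusted p = 0.000266). Fibroblast markers, 8 of 9 listed, summed to 401 to 464 with VAV1 and saracatinib, 437.5 to 509.5 with VAV1 and vehicle and 396 to 461 with the empty vector. With RAC1 P29S they summed to 218 to 288.5, against 148 to 255 in its control, where 6 of 9 were listed. Among the fibroblast markers, 1 of 6 tested was called with VAV1 (limma). It was FAP, a surface protease, at 30.2 to 47.7 normalized counts with VAV1 and saracatinib and 10.9 to 36.7 with VAV1 and vehicle, against 0 to 1.09 with the empty vector, so that FAP passed the filter through VAV1 libraries alone. Its log2 difference from empty vector was 4.89 ± 0.51 with saracatinib (limma, adjusted p = 6.28e-06) and 3.83 ± 0.51 with vehicle (adjusted p = 4.84e-05). The collagen gene COL1A1 had 0.36 ± 0.22 with VAV1 (limma, adjusted p = 0.216). With RAC1 P29S, 2 of 5 fibroblast markers were higher, COL1A1 by 1.61 ± 0.43 (limma, adjusted p = 0.0167) and LUM by 0.79 ± 0.24 (adjusted p = 0.0292). With saracatinib, 1 of 6 was higher, PDGFRA by 0.99 ± 0.24 (limma, adjusted p = 0.00573), and 2 were lower. COL1A1 was among those 2, at -1.69 ± 0.22 (adjusted p = 5.77e-05). The part of the leukocyte, neuron and fibroblast markers in these results was not tested.

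On the chromosomes, 4 places hold single members and chromosome 1 holds 3. On GRCh38, MME lies at chr3:155024124-155183729, BASP1 at chr5:17065598-17276843, ANO2 at chr12:5531869-5946232, VSTM1 at chr19:54040825-54063953, IGFN1 at chr1:201190825-201228952, TNNT2 at chr1:201359008-201377762 and KISS1 at chr1:204190341-204196486, from GENCODE release 29. The 2 nearest protein-coding genes on each side gave 24 neighbours reported here, of which 10 were not listed in the 9-library experiment. Of 13 tested with VAV1, 6 were called higher and 3 lower, beside 23.6% and 20.1% of all tested genes. Of 10 tested with RAC1 P29S, 5 were higher and 2 lower (limma), beside 15.6% and 15.5%. Among those higher with VAV1, GOLT1A and OSCAR had no empty vector library at 10 normalized counts. Among those higher with RAC1 P29S, PLEKHA6 and OSCAR had no control library at that level. Such genes passed the filter only through libraries in which they were high, so these counts lend no support.

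Close to KISS1, 2 neighbours were higher with VAV1. GOLT1A, a Golgi transport gene 1.674 kb away from KISS1, was at 68.7, 76.9 and 68.5 normalized counts with VAV1 and saracatinib and 37.5, 44.6 and 36.4 with VAV1 and vehicle, against 6.05, 9.34 and 5.18 with the empty vector. It was higher with VAV1 by 2.40 ± 0.26 (limma, adjusted p = 7.25e-06) and with saracatinib by 0.84 ± 0.26 (limma, adjusted p = 0.0218), the second opposite in direction to KISS1. PLEKHA6 had 123, 209 and 128 normalized counts with VAV1 and vehicle, against 28.96, 6.49 and 8.77 with the empty vector, and 23.3, 85.5 and 90.1 with RAC1 P29S, against 0, 0.5496 and 2.39. Its log2 difference was 3.53 ± 0.45 with VAV1 (limma, adjusted p = 6.48e-05) and 5.05 ± 0.63 with RAC1 P29S (adjusted p = 0.000169). Beside VSTM1, OSCAR, an activating receptor gene of the same cluster, had 18.8, 12.35 and 12.04 normalized counts with VAV1 and saracatinib and 43.2, 48.1 and 54.5 with VAV1 and vehicle, and fell with saracatinib by 1.71 ± 0.38 (limma, adjusted p = 0.00289). Beside BASP1, the unconventional myosin gene MYO10 rose by 2.03 ± 0.10 with VAV1 and by 1.93 ± 0.08 with RAC1 P29S and fell by 1.39 ± 0.10 with saracatinib (limma, adjusted p = 1.31e-07). Beside MME, DHX36 had a VAV1 difference of 0.10 ± 0.06 (adjusted p = 0.196), and beside IGFN1, TMEM9 had 0.19 ± 0.06 (adjusted p = 0.0159), both by limma. MME, BASP1, ANO2 and IGFN1 also overlap genes on the opposite strand, such as MME-AS1 and BASP1-AS1, by their whole spans. Exons of such pairs were not compared, and the sources used here do not say whether reads were assigned by strand. Whether such pairs share reads was not tested.

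**Figure D5:**
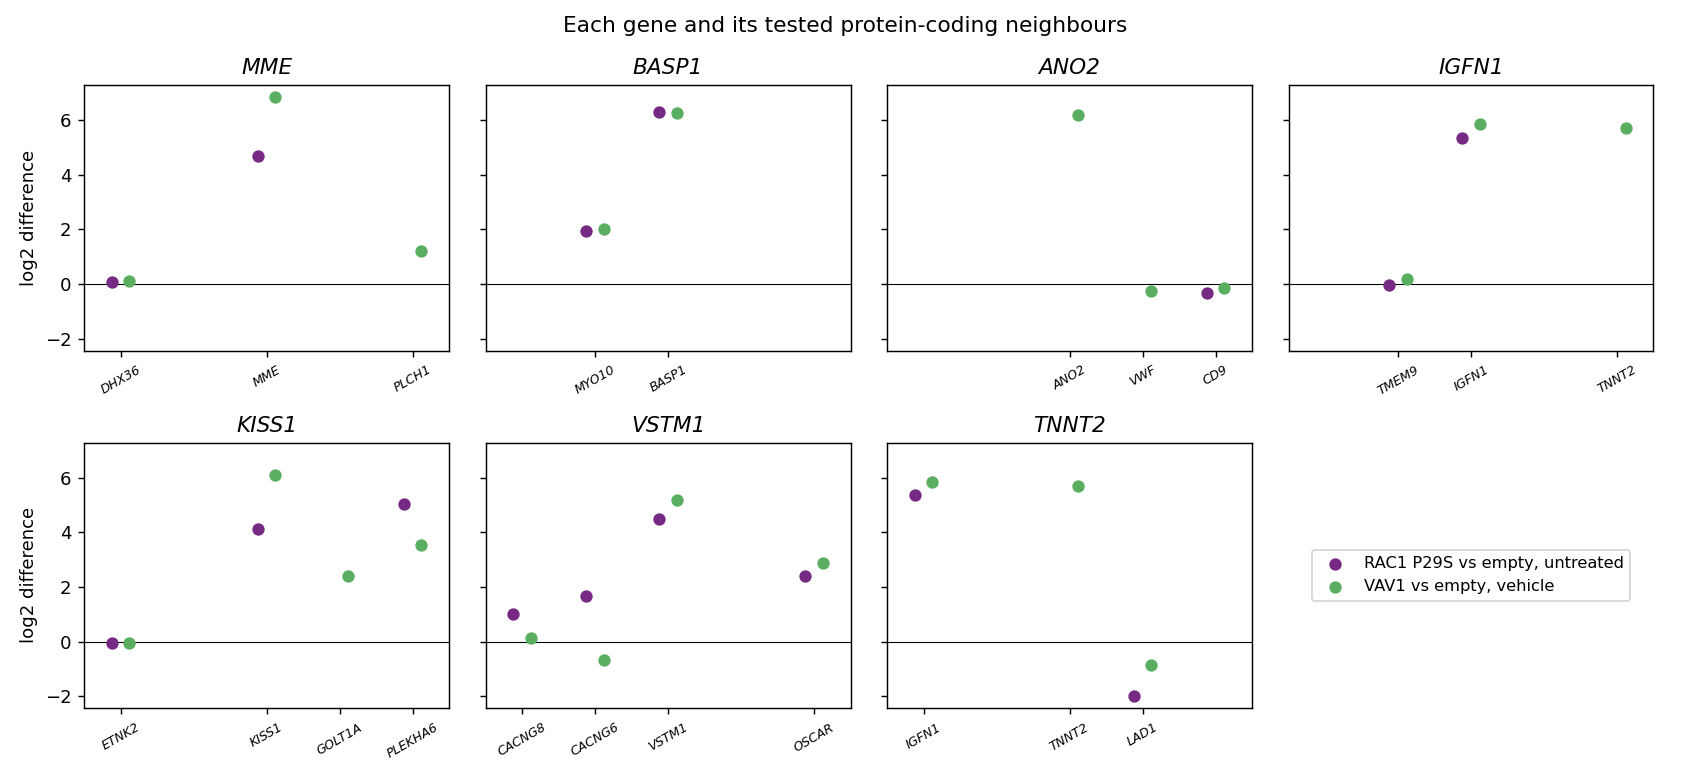
Log2 difference of each gene and of those of the 2 nearest protein-coding genes on either side that had a value, in chromosome order, for RAC1 P29S against empty vector (purple) and VAV1 against empty vector with vehicle (green). Genes with no point in either comparison are not drawn. The centre gene of each panel is the highest for VAV1 with the exception of TNNT2, beside IGFN1, and PLEKHA6 near KISS1 is the highest point of its panel for RAC1 P29S.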

How the data were processed

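Total RNA of 15 A375 libraries was sequenced. The authors deposited 1 table per library with log2 values per gene symbol, which the values show to be log2 of a normalized count plus a pseudocount of 1, and kallisto, DESeq2 and GRCh38 are named, without versions, per the submitters' processing notes. Counting strand and annotation release are not given in the sources used here. Samples were grouped by title. The members, gene lists, naming rule and comparisons were chosen with earlier results of these data known. limma 3.58.1 in R 4.3.3 was fitted with 1 mean per group, a mean-variance trend and robust empirical Bayes, two-sided, to the 9 libraries (14410 genes with at least 10 normalized counts in at least 3 libraries) and to the 6 untreated libraries (14036 genes), with Benjamini-Hochberg adjustment over all genes at 0.05. Named genes are the 7 members, up to 4 per list by smallest adjusted p, the 3 most alike per member, up to 10 of the wider set and the 2 neighbours on each side. TTN was added for the size of its RAC1 P29S difference. Positions are from GENCODE release 29 and promoter windows from RefSeq on GRCh38.p14. The fit was tested on simulated data. No member lay under the filter in a table that lists it. Read depth per library is unknown, so no counting interval is given. A gene next to one of the members is not reported here.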

Additional observations from a re-analysis of the deposited data

How the results depend on the processing

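No log2 difference of the 7 genes changed sign under the alternatives run. The balance of calls over all genes did turn with total-count scaling: 3080 higher and 3127 lower with VAV1 in place of 3399 and 2893, 2111 and 2289 with RAC1 P29S in place of 2194 and 2175, and 2795 and 2549 with saracatinib in place of 2632 and 2749. Being near even, it also turned under other settings for saracatinib and RAC1 P29S. The number of the 7 genes called with saracatinib depended most on the settings: 1 in the reported fit, 4 with a pseudocount of 4, 5 with a pseudocount of 16, 2 each with a filter at 50 normalized counts, with quantile normalization and with limma without trend or robust estimation, and 7 in the fit of the 6 VAV1 libraries, which leaves out the empty vector libraries and their spread. Leaving out 1 library at a time gave 0 to 3 genes. With a larger pseudocount the spread of the libraries near 0 counts for less by construction. For RAC1 P29S, leaving out 1 library gave 1 to 6 genes: 1 without any of the RAC1 P29S libraries, because a gene silent in the control can then no longer reach the filter in 3 libraries, and 6 each time with the filter in 2 libraries, a setting chosen after seeing the data. The filter at 50 normalized counts left 4 genes called with RAC1 P29S, since ANO2 and KISS1 were then not tested. For VAV1 with saracatinib against empty vector 7 genes were called under each of the 19 alternatives. The replicate numbers do not pair the libraries (correlations of residuals -0.0547 to 0.0125), and a fit with the replicate number as block called 1, 7 and 6 of the genes for saracatinib, VAV1 with saracatinib and RAC1 P29S, and 5061, 5940 and 3888 genes in all. Counts over all genes stayed within 1.5 times of the reported ones. Log2 differences of genes near 0 shrink with the pseudocount, for RAC1 P29S down to 2.06 in KISS1, and the precision is limited by 3 libraries per group.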
